A study of Neurospora crassa with 19 samples.

Results

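The 6 genes described here encode cell wall proteins of the filamentous fungus Neurospora crassa. They were taken by locus number from the 9730 genes counted in 2 poly-A RNA libraries: acw-8 (NCU07277), acw-4 (NCU09263), acw-12 (NCU08171), ncw-1 (NCU05137), ncw-5 (NCU00716) and ccg-15 (NCU08936), which the gene table also calls acw-1. They were picked for their level and for how far that level differed between the libraries, so both are given as a description without a test. Both libraries came from strain N5801, labelled as carrying a complete deletion of dim-1 (NCU06484), a chromatin remodeler gene, although reads of that gene were present. Its tissue label is germinated conidia (asexual spores that have begun to grow), from a shaking culture of 16 h at 32 °C in Vogel's minimal medium with sucrose at 1.5%. The other 17 of the series' 19 samples were not analysed here. No wild-type RNA library was used, so the only contrast is that between replicate 1 and replicate 2 of a single strain. Whether the duplicate libraries came from separate cultures is not in the labels, so their spread may be technical.

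The wall of Neurospora hyphae is a mesh of glucan and chitin into which glycoproteins are bound. Many of these proteins pass through the secretory pathway, receive a glycosylphosphatidylinositol (GPI) anchor and are then cross-linked to wall polysaccharide. The acw genes are named for anchored cell wall proteins, which carry such an anchor, and the ncw genes for non-anchored cell wall proteins. The ccg genes are named for clock-controlled expression, so ccg-15 belongs by name to both the wall proteins and the clock-controlled genes.

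Summed over genes, the depth was 17364963 counts in replicate 1 and 13632746 in replicate 2. Levels are expressed as CPM, the count of a gene per 1e6 of these totals. The targeted gene dim-1 had 258 counts (14.9 CPM, exact Poisson 95% interval 13.1 to 16.8) in replicate 1 and 171 counts (12.5 CPM, 10.7 to 14.6) in replicate 2. Reads of the gene labelled as completely deleted were thus present in both libraries, against the label. Counts per gene do not show from which part of the locus they came, and the strain is named here by its label only. All intervals cover counting error only.

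All 6 genes were higher in replicate 1. Their median log2 ratio of replicate 2 over replicate 1 was −1.28, against −0.05 over the 7898 genes whose counts in the 2 libraries summed to at least 20. Among those 7898 genes, 55.6% were higher in replicate 1. A difference of at least 2-fold was found for 4 of the 6 (acw-4, acw-12, ncw-1 and ncw-5), against 6.69% of all genes in either direction, 5.79% higher in replicate 1 and 0.899% higher in replicate 2. Since the 6 were chosen on this ratio, nothing is read from that contrast. Among the 177 genes with a mean of at least 1000 CPM, 6.78% differed at least 2-fold in either direction (5.08% higher in replicate 1 and 1.69% in replicate 2), and 48.6% were higher in replicate 1 by any amount. Of the 1750 genes with a mean of at least 100 CPM, 4.97% differed at least 2-fold in either direction (4% higher in replicate 1 and 0.971% in replicate 2). Of the 6 wall protein genes, 4 exceeded a mean of 1000 CPM and ncw-5 and acw-12 did not.

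**Figure D1:**
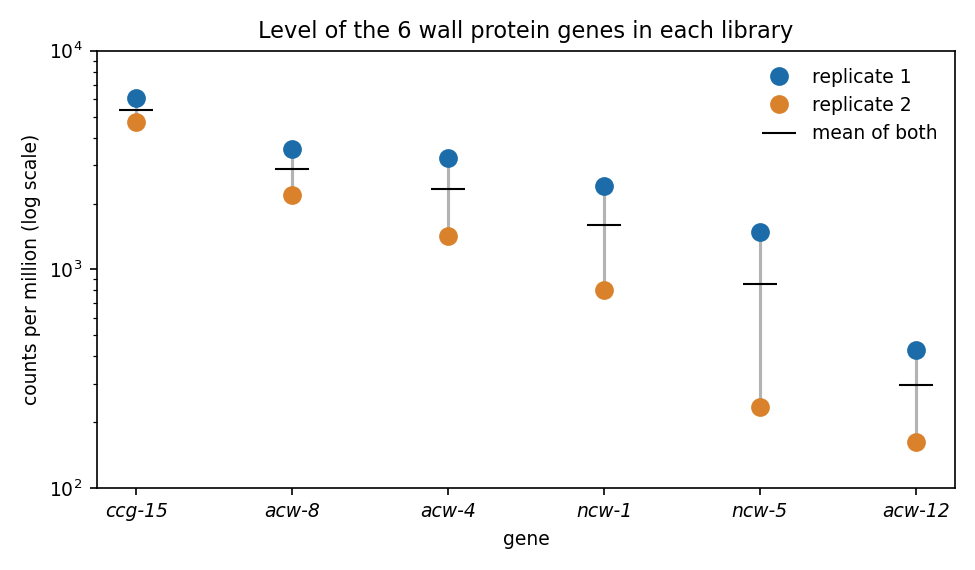
Level of each of the 6 genes in CPM (vertical axis, log scale), with a point for each library and a bar for the mean of both. Replicate 1 is above replicate 2 for every gene, by 1.29-fold for ccg-15 and by 6.33-fold for ncw-5.

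Among the 4 anchored wall protein genes of the 6, ccg-15 had the highest level and the smallest difference. It had 105461 counts (6073 CPM) in replicate 1 and 64018 counts (4696 CPM) in replicate 2, with a mean of 5385 ± 974 CPM (SD, n = 2). Replicate 1 was 1.29-fold higher (95% interval 1.28 to 1.31). The gene made up 0.607% of all gene counts in replicate 1 and 0.470% in replicate 2.

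The next of this group by CPM was acw-8, with 61883 counts (3564 CPM) in replicate 1 and 29909 counts (2194 CPM) in replicate 2. Its mean was 2879 ± 969 CPM (SD, n = 2), and replicate 1 was 1.62-fold higher (1.60 to 1.65). Like ccg-15 it stayed under a 2-fold difference.

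The anchored wall protein gene acw-4 had 55889 counts (3218 CPM) in replicate 1 and 19456 counts (1427 CPM) in replicate 2. The mean was 2323 ± 1267 CPM (SD, n = 2) and replicate 1 was 2.26-fold higher (2.22 to 2.29). The count of acw-8 was 1.11 times that of acw-4 in replicate 1 and 1.54 times in replicate 2, without a correction for length. Per kilobase of gene span, the measure compared below, acw-4 stood above acw-8, by 1.58 times in replicate 1 and 1.14 times in replicate 2.

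The least abundant of the 6 was acw-12, with 7424 counts (428 CPM) in replicate 1 and 2221 counts (163 CPM) in replicate 2. The mean was 295 ± 187 CPM (SD, n = 2), and replicate 1 was 2.62-fold higher (2.50 to 2.75). The word abundant therefore applies to acw-12 only in relation to the genome as a whole, in which the median gene tested had 33.0 CPM.

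Both non-anchored wall protein genes chosen here differed more than any of the 4 anchored ones chosen. All of these genes were picked in part for how far they differed. Nothing is therefore read from this contrast about anchored and non-anchored wall proteins in general. For ncw-1, replicate 1 held 41581 counts (2395 CPM) and replicate 2 held 10914 (801 CPM), with a mean of 1598 ± 1127 CPM (SD, n = 2). Replicate 1 was 2.99-fold higher (2.93 to 3.06). Among the genes with a mean of at least 1000 CPM, ncw-1 was number 3 in the order of shift toward replicate 1.

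The widest difference of the 6 was that of ncw-5. Replicate 1 held 25795 counts (1485 CPM) and replicate 2 held 3197 (235 CPM), a 6.33-fold difference (6.11 to 6.57). The mean of 860.0 ± 885 CPM (SD, n = 2) had an SD larger than itself, so a single mean describes neither library. Over the 7898 genes tested, ncw-5 was number 21 in the order of shift toward replicate 1.

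The 6 genes did not keep a fixed proportion to each other. Ratios between the counts of a pair of genes within a library do not depend on how the libraries are scaled. The count of ncw-5 was 0.245 times that of ccg-15 in replicate 1 and 0.0499 times in replicate 2, a 4.90-fold change and the largest among the 15 pairs. The smallest was between ncw-1 and acw-12, whose ratio was 5.60 in replicate 1 and 4.91 in replicate 2, a 1.14-fold change. The pair acw-12 and acw-4 changed by 1.16-fold, acw-8 and ccg-15 by 1.26-fold, ncw-1 and acw-4 by 1.33-fold, and acw-8 and acw-4 by 1.39-fold. The 5 pairs that hold ncw-5 changed by 2.12-fold or more.

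Levels of different genes were compared per kilobase of gene span, the distance from gene start to gene end in the gene table, because exon and coding lengths were not used here. By this measure ccg-15 led with 1748 CPM per kilobase in replicate 1 and 1352 in replicate 2, and stood at rank 29 of all genes by the mean. The next was acw-4, with 1742 and 772 CPM per kilobase (rank 42), then acw-8 with 1104 and 680 (rank 68). Below them came ncw-5 with 849 and 134 (rank 168), ncw-1 with 617 and 206 (rank 203) and acw-12 with 227 and 86.3 (rank 472). The order was the same in both libraries except that ncw-1 stood above ncw-5 in replicate 2. For each of the 5 pairs of neighbours in this order the ranges over the libraries overlapped. Within a library, ncw-1 exceeded acw-12 by 2.72 times in replicate 1 and 2.39 times in replicate 2, a step that varied little between the libraries. The step from acw-8 to ncw-5 was 1.30 times and 5.07 times, and that from ccg-15 to acw-4 was 1.00 and 1.75 times.

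The wall protein families as a whole place the 6 among 13 further genes with an acw or ncw symbol or synonym. Together the 19 genes held 3.38% of gene counts in replicate 1 (Wilson 95% interval 3.37 to 3.39) and 2.21% in replicate 2 (2.20 to 2.21). The 6 genes accounted for 1.72% and 0.951%, and the other 13 for 1.66% and 1.25%. Of the 13 others, 8 were higher in replicate 1 and 5 in replicate 2, with a median log2 ratio of −0.15. Over all genes tested, 55.6% were higher in replicate 1. At least 2-fold higher in replicate 1 was 1 of the 13, against 5.79% of all genes tested, and none was 2-fold higher in replicate 2. This list was formed with earlier results of these data known, and the 6 were taken out of it for their shift, so the remaining genes are no independent comparison.

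**Figure D2:**
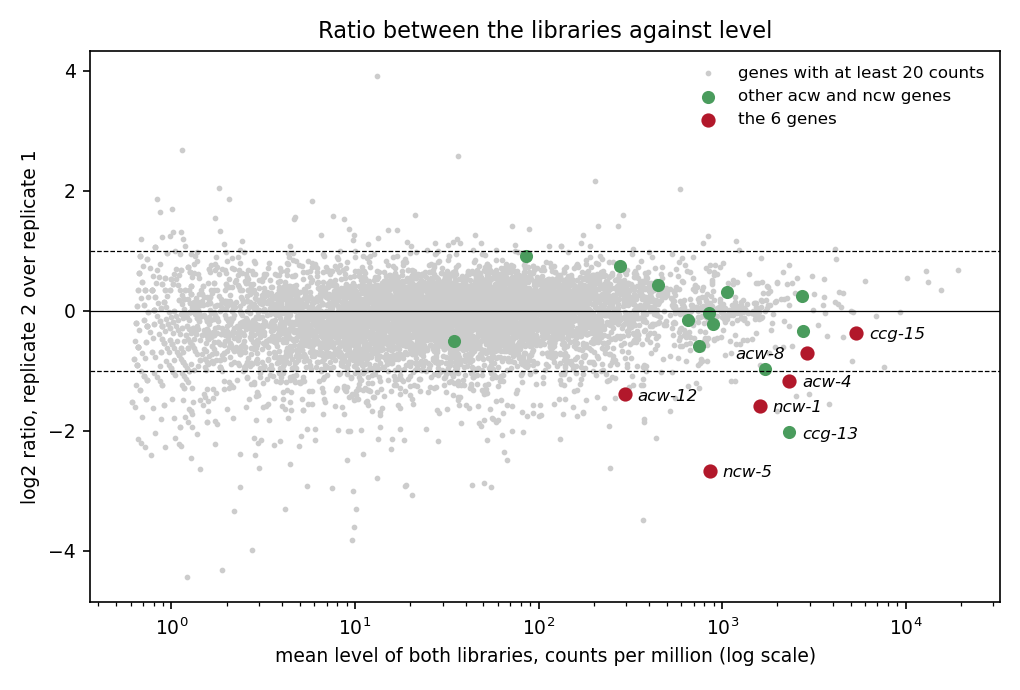
Log2 ratio of replicate 2 over replicate 1 (vertical axis) against the mean level in CPM (horizontal axis, log scale) for 7898 genes. The 6 genes (red) all lie below 0, and the other acw and ncw genes (green) lie on both sides of it, with ccg-13 the lowest of them.

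The 1 gene past 2-fold was ccg-13 (NCU08907), also listed as ncw-7, with 3729 CPM in replicate 1 and 916 in replicate 2 (4.07-fold). It led the order of shift toward replicate 1 among genes of at least 1000 CPM, and its fold lay between those of ncw-1 and ncw-5. Next to the threshold stood ncw-3 (NCU07817), with 2280 and 1160 CPM (1.97-fold). Of the 9 genes of at least 1000 CPM that were 2-fold or more higher in replicate 1, 3 were acw or ncw genes. They were ccg-13, ncw-1 and acw-4. Among all 177 genes of at least 1000 CPM, 9 were acw or ncw genes. Since ncw-1 and acw-4 were chosen for their shift, nothing is read from the contrast between these counts.

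The other ncw genes lay on both sides of 0. In replicate 1 ncw-2 (NCU01752) had 950 CPM and in replicate 2 it had 1187. For ncw-4 (NCU02948) the values were 682 and 613 CPM. The lowest, ncw-6 (NCU00586), had 59.1 and 112 CPM and was 1.89-fold higher in replicate 2. The 7 ncw genes thus ranged from a log2 ratio of −2.66 for ncw-5 to 0.92 for ncw-6, with a median of −0.98. This median includes ncw-1 and ncw-5, which were chosen for their shift.

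The 12 acw genes, ccg-15 included, ranged less widely, from a log2 ratio of −1.39 for acw-12 to 0.75 for acw-6, with a median of −0.36. Higher in replicate 1 were 9 of the 12, against 55.6% of all genes tested. These 9 include ccg-15, acw-8, acw-4 and acw-12, which were chosen for their shift. Of those outside the 6, acw-3 (NCU05667) had 3098 and 2443 CPM, acw-7 (NCU09133) had 954 and 822, acw-2 (NCU00957) had 892 and 598, and acw-10 (NCU03013) had 40.4 and 28.4. The level of acw-5 (NCU07776) was nearly equal, at 861 and 842 CPM. Higher in replicate 2 were acw-9 (NCU06185) at 2488 and 2963 CPM, acw-11 (NCU02041) at 381 and 513, and acw-6 (NCU03530) at 207 and 349.

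The make-up of wall protein RNA is given as a description, since the 6 genes were chosen for their shift between these same libraries. Lower shares of the most shifted of them in replicate 2, and higher shares of other genes, follow in part from that choice. The share of ccg-15 among counts of the 19 genes was 18.0% in replicate 1 and 21.3% in replicate 2, the highest in both. Although its CPM was lower in replicate 2, its share of the family was therefore higher there. The share of acw-8 was 10.5% and 9.94%, and that of acw-4 9.53% and 6.47%. For ncw-1 it was 7.09% and 3.63%, for acw-12 1.27% and 0.738%, and for ncw-5 4.40% and 1.06%. In the order of shares ncw-5 stood at place 9 in replicate 1 and 16 in replicate 2, while acw-9 moved from place 6 to place 2.

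**Figure D3:**
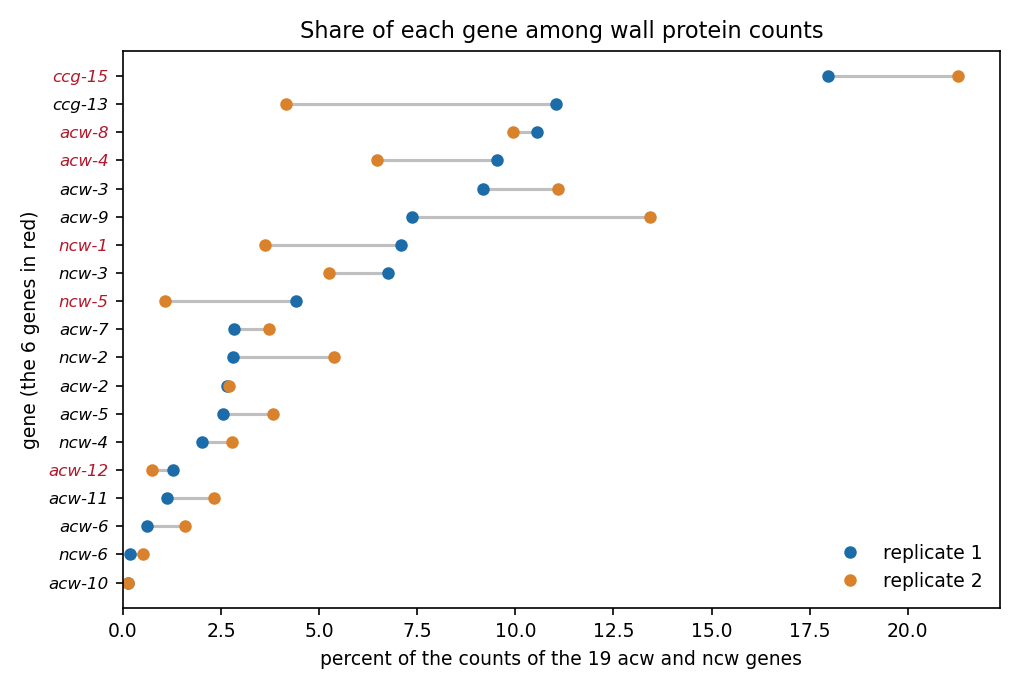
Share of each of the 19 acw and ncw genes in their summed counts (horizontal axis, percent), with a point for each library and the 6 genes named in red. Among the 6, ccg-15 is the only gene with the larger share in replicate 2, at 21.3% against 18.0%. The 6 were chosen on their ratio between the libraries, so the shares are a description only.

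Listed genes for building and remodelling the wall differed less than 2-fold. Over all genes tested only 6.69% differed by 2-fold or more, so nothing is read from this. Of 5 genes found for wall glycosidases and transglycosylases, 4 were higher in replicate 1, against 55.6% of all genes tested. Their median log2 ratio was −0.26. The gel genes encode glucanosyltransferases, which lengthen wall glucan. The highest of them, gel-3 (NCU08909), had 6487 CPM in replicate 1 and 3642 in replicate 2 (1.78-fold), and gel-4 (NCU07253) had 795 and 547. The chitinase gene chit-1 (NCU02184) had 50.6 and 82.2 CPM.

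The list for chitin and glucan synthases held 8 genes, among them the regulator rho-1. Of these 8 genes, 5 were higher in replicate 1 and 3 in replicate 2, with a median log2 ratio of −0.13. Over all genes tested, 55.6% were higher in replicate 1. The glucan synthase gene do (NCU06871), also listed as fks, had 1291 and 915 CPM. The gene rho-1 (NCU01484), for the small GTPase that regulates glucan synthase, had 847 and 964. The chitin synthase gene chs-5 (NCU04352) had 736 and 541. None reached 2-fold in either direction, against 6.69% of all genes tested, so nothing is read from this either.

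Genes for GPI anchors and for mannosylation, which act on wall proteins during secretion, were nearly level between the libraries. The 7 genes had a median log2 ratio of 0.03 and ranged from −0.29 to 0.28. The GPI gene gpit-1 (NCU05644) had 75.7 and 77.0 CPM. The mannosyltransferase gene och-1 (NCU00609) had 52.5 and 42.9, and com (NCU06508), also listed as gpip-3, had 41.2 and 46.4. The range of this list was thus narrower than that of the 6 genes, which ran from −2.66 to −0.37. The 6 were chosen on this ratio and the lists also differ in level, so nothing is read from that contrast. No test was made.

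**Figure D4:**
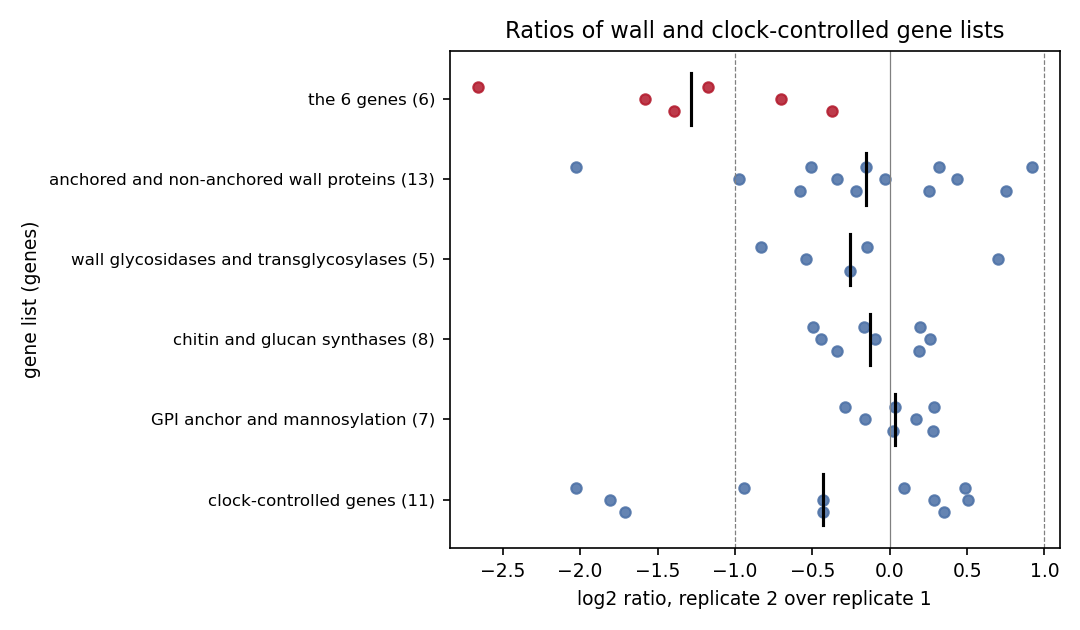
Log2 ratio of replicate 2 over replicate 1 (horizontal axis) for each gene of 6 lists, with a bar at the median and dashed lines at 2-fold. The 6 genes have a median of −1.28, the other wall proteins −0.15 and the GPI and mannosylation genes 0.03. The 6 were chosen on this ratio, so their place beside the other lists is a description only.

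By name ccg-15 is also a clock-controlled gene. The other 11 genes with a ccg symbol or synonym, eas among them, were split, with 6 higher in replicate 1 and 5 in replicate 2 and a median log2 ratio of −0.43. At least 2-fold higher in replicate 1 were 3 of them, ccg-13, ccg-1 (NCU03753; 584 and 167 CPM) and ccg-9 (NCU09559; 266 and 81.4 CPM), the last 2 named after their values were seen. Over all genes tested, 55.6% were higher in replicate 1 and 5.79% at least 2-fold so. Of these ccg genes, ccg-13 is also counted among the wall proteins. Of the 3 most abundant, gpd-1 (NCU01528), also listed as ccg-7 and encoding a glycolytic enzyme, had 13647 and 17393 CPM, ccg-14 (NCU07787) had 9959 and 5180, and ccg-16 (NCU05495) had 5230 and 3878. The shift of ccg-15 lay close to that of ccg-16, at 1.29-fold against 1.35-fold.

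Lists of markers for conidia and aerial growth, sexual tissue and growing hyphae were read beside the 6 genes. The 9 markers of conidia and aerial growth summed to 728 CPM in replicate 1 and 507 in replicate 2, and none was at 0 in both libraries. Of the 8 whose counts summed to at least 20, 6 were higher in replicate 1, of which con-8 (NCU09235; 144 and 67.3 CPM) and con-10 (NCU07325; 25.9 and 5.87 CPM) reached 2-fold. The shares over all genes tested were 55.6% higher in replicate 1 and 5.79% at least 2-fold so. The other 2 of the 8 were higher in replicate 2, eas (NCU08457) at 53.6 and 76.0 CPM and con-6 (NCU08769) at 1.21 and 2.05. The 8 markers of sexual tissue summed to 171 and 134 CPM, with fmf-1 and matA-1 at 0 in each library. The mating type of the strain was not used here, so the 0 of the mating type gene matA-1 is not read as a lack of sexual tissue. For a count of 0, the exact Poisson 95% interval reaches up to 0.212 CPM in replicate 1 and 0.271 CPM in replicate 2. Of the 5 sexual markers whose counts summed to at least 20, 4 were higher in replicate 1 and none was 2-fold apart. The 5 markers of growing hyphae summed to 14522 and 15767 CPM, with none 2-fold apart. The part of these markers in the shift of the 6 wall protein genes was not tested. In bulk RNA, fewer cells of a type and less RNA per cell cannot be told apart.

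For each of the 6 genes, the genes nearest in level were found by the distance of log2(CPM + 1) over the 2 libraries. Since only 2 libraries enter, nearness means a similar level in each and no more. Nearest to acw-8 were acw-3 (distance 0.255) and NCU09175 (0.358), to acw-4 NCU07569 (0.198) and NCU05395 (0.408), and to acw-12 fdh (NCU03813; 0.165) and NCU09182 (0.261). Nearest to ncw-1 were NCU07232 (0.412) and NCU06132 (0.513), and to ccg-15 NCU07257 (0.260) and NCU04502 (0.297). The nearest to ncw-5 were farther away, NCU06977 at 0.908 and NCU02084 at 0.938.

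Adjacent genes on the chromosome were read for each of the 6. Of the 12 adjacent genes, 11 had counts that summed to at least 20, of which 9 were higher in replicate 1 and 2 in replicate 2. At least 2-fold higher in replicate 1 were 3 of the 11. Among all genes tested, 55.6% were higher in replicate 1 and 5.79% at least 2-fold so. Of the 3 adjacent genes, NCU05138 (4.32 and 1.61 CPM) and NCU05136 (1545 and 684 CPM, 2.26-fold) flank ncw-1 on either side. The other, NCU08937, with 23 and 4 counts, adjoins ccg-15. The 95% intervals of the fold for NCU05138 (1.65 to 4.52) and NCU08937 (1.54 to 18.0) reach below 2. NCU05136 was the only adjacent gene of at least 1000 CPM. The 2 genes beside acw-8, NCU07279 (81.4 and 54.4 CPM) and NCU07276 (71.5 and 71.2), and those beside acw-4, NCU09264 (12.04 and 13.5) and NCU09262 (3.05 and 1.98), were far lower than the wall protein gene between them.

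The remaining adjacent genes were also low. Beside acw-12 stood NCU08170, with 6 and 3 counts, and NCU08172, with 23 and 16. Beside ncw-5 stood NCU00717 (102.5 and 99.2 CPM) and NCU00715 (61.04 and 35.6), and NCU08935 (41.9 and 75.7 CPM) lay on the other side of ccg-15. The gene spans of NCU09264, NCU08172, NCU05138 and NCU00715 overlap that of the wall protein gene they adjoin. Without a stated strand setting, reads of overlapping genes cannot be assigned with certainty, so low values of these 4 may include reads of their neighbour.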

How the data were processed

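Poly-A RNA was measured in 2 libraries. Cultures were lysed with glass beads and phenol and libraries made with a stranded kit, per the labels' protocols. The deposited values are whole-number counts of reads per gene, without normalization. HTSeq and TopHat are among 6 tools of the series, per the submitters' processing notes, which give neither roles nor versions. The build, annotation and strand setting used to count reads were not given in the sources used here. The 5 rows for reads without a gene were left out of library sizes. Reads outside genes were 6.72% and 6.64% of all rows, and reads aligned to several places 3.41% and 2.48%.

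Levels are CPM over gene counts, with mean and SD over n = 2. Ratios used counts with 0.5 added, and intervals are exact (Poisson for levels, binomial for ratios). With 1 library on each side no test was made, and a gene counts as 2-fold apart by its ratio alone. The ratio step was tested on simulated data. Scaling by edgeR 4.0.16 (TMM) and DESeq2 1.42.0 in R 4.3.3 served as alternatives. Other steps used Python 3.11.15, numpy 2.4.6, pandas 2.3.3, scipy 1.17.1 and matplotlib 3.10.9. Symbols, synonyms, gene order and spans came from the RefSeq gene table of NC12, which held 9729 of the 9730 loci. No coordinates are given, since the counts name no build. Protein and coding lengths were intended but not used here, so gene span replaced them and protein features were not described.

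The members and lists were chosen with earlier results of these data known. The 5 gene lists were formed by symbol or synonym. The genes named are dim-1, the 6 genes, the adjacent gene on each side, the 2 genes nearest in level, all acw and ncw genes, and the 3 highest of each other list. Named besides these, after their values were seen, are the markers that reached 2-fold or were at 0, the conidial markers higher in replicate 2, and list genes past 2-fold.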

Additional observations from a re-analysis of the deposited data

How the results depend on the processing

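The direction of all 6 wall protein genes was the same under 3 other scalings and with 5 counts added, and the largest move of any of their log2 ratios was 0.06. Their median log2 ratio of −1.28 became −1.23 under edgeR's TMM scaling and −1.23 under DESeq2's size factors. The number of the 6 at least 2-fold apart was 4 under each scaling and 5 at a fold of 1.5. Over all genes, 528 were at least 2-fold apart (457 higher in replicate 1 and 71 in replicate 2), against 1650 at a fold of 1.5 and 1132 without a count filter, the latter because genes with few counts enter. Of the 43 other list genes, 3 were at least 2-fold apart and 9 at a fold of 1.5. The same numbers over the 7898 genes tested were 528 and 1650. TMM scaling moved the split over all genes to 419 and 97. Leaving out a library leaves the level of the other, so a gene's level ranges between its values in the libraries, and the ratio has no value then. The level of dim-1 ranges from 12.5 to 14.9 CPM in this way. No paired analysis was possible because the RNA libraries form a single group. Levels by coding length were not run. For each of the 6, counting error is small beside the difference between the libraries, and the number of libraries limits what can be said.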
